A study of Mus musculus with 56 samples.

Results

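The genes described here are 9 interferon response genes, Isg15, Usp18, Irf7, Ifit1, Ifit2, Ifit3, Oasl2, Rsad2 and Bst2, of the 20018 genes that could be named on the arrays. They were chosen by name as familiar targets of interferon, and each was followed through 1 probe per tissue, the one with the brightest signal, on all 56 arrays. The 19 donors of RNA were male MutaMouse animals of about 14 weeks, a strain that carries a bacterial lacZ transgene for scoring mutations, and their forestomach, liver and lung were taken 72 h after the last of 28 daily gavages. Vehicle mice (D0) received plain olive oil, and treated mice received the polycyclic aromatic hydrocarbon chrysene dissolved in it, at 17.5 mg/kg-bw/day in D1, 50 in D2 and 150 in D3. Groups D0, D1 and D3 held 5 mice in every tissue, and D2 held 3 lungs, 4 livers and 4 forestomachs. Each array compared the sample, in the red dye Cy5, with a reference RNA pooled from mouse cell lines, in the green dye Cy3, and all values below are log2 ratios of sample to reference unless a sentence says otherwise. A level is therefore relative to that pool and is compared only within 1 gene, between arrays. All mice carried the transgene, all were gavaged with olive oil, and no mice were given interferon or an infection, so the groups hold no positive control for these genes.

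Interferons are secreted signals of antiviral defence. They bind receptors on the cell surface, the receptors activate JAK kinases, and the signal reaches the nucleus, where a short DNA element in front of many target genes is bound. Lung and liver hold many resident immune cells, and both tissues keep a low level of these transcripts in healthy animals, whereas the rodent forestomach is a pouch lined by a keratinised squamous epithelium. The members act at different steps. Isg15 is a ubiquitin-like protein that is attached to other proteins, Usp18 removes it and also dampens the interferon receptor, and Irf7 is the transcription factor that drives interferon production. Ifit1, Ifit2 and Ifit3 bind viral RNA or one another, Oasl2 is a relative of the enzymes that sense double-stranded RNA, Rsad2 (viperin) makes a nucleotide that stops viral polymerases, and Bst2 (tetherin) holds budding virus at the cell surface and in mice is also used as a marker of plasmacytoid dendritic cells.

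Interferon acts through such an element in the promoter, and the promoters are shown because the values below compare how the genes moved together. The lines give the last 160 bases before the transcription start of 6 members, 5′ to 3′ on the strand of the gene, from RefSeq (assembly GRCm38.p6). Capitals mark every match, on either strand, to the half-site GAAA followed after any 2 bases by a second GAAA, which on the opposite strand reads TTTC, any 2 bases, TTTC; matches may overlap. The positions are chr4:156200819-156200978, minus strand for Isg15; chr19:34640729-34640888, plus strand for Ifit1; chr19:34583369-34583528, plus strand for Ifit3; chr12:26456453-26456612, minus strand for Rsad2; chr8:71537473-71537632, minus strand for Bst2 and chr5:114896774-114896933, plus strand for Oasl2.
Isg15: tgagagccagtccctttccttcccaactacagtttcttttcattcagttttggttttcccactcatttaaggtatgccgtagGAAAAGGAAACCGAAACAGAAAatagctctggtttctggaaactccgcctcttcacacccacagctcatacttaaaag
Ifit1: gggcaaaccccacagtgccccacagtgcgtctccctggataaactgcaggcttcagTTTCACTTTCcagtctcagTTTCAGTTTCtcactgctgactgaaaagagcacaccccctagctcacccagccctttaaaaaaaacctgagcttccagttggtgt
Ifit3: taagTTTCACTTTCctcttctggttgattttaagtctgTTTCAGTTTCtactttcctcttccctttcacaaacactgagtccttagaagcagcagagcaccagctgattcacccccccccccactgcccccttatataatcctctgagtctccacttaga
Rsad2: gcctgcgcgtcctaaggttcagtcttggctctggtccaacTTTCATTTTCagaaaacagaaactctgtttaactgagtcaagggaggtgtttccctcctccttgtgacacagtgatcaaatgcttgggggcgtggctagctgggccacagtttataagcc
Bst2: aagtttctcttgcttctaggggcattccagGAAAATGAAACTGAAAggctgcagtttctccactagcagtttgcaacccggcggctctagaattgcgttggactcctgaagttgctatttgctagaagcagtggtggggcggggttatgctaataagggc
Oasl2: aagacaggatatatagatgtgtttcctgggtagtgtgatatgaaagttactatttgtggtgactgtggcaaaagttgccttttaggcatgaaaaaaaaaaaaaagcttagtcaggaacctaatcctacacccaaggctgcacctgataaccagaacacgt

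Isg15 held 3 overlapping matches, which began 78, 72 and 66 bases before its start. Ifit1 held 2, at 104 and 85 bases, and Ifit3 held the same 2 stretches of letters farther from its start, at 156 and 122 bases. Rsad2 held 1, at 120 bases, and Bst2 held 2 that overlapped, at 130 and 124 bases. In a window of 250 bases, 5 of the 8 members with an entry held a match (62.5%), against 936 of all 27025 genes with an entry (3.46%). Irf7, Ifit2 and Oasl2 held none in that window, which says only that these letters were not there, and Usp18 was without an entry. Matches are a description of letters, and no binding was measured.

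The tissues carried their own markers. In D0 the mean log2 ratio of hepatocyte genes was 7.10 ± 0.07 in liver (SD, n = 5), that of marker genes of alveolar type 2 cells was 6.22 ± 0.21 in lung, and that of keratinocyte genes was 3.38 ± 0.70 in forestomach. The forestomachs also held transcripts of other tissues, unevenly: the mean of 9 glandular stomach markers ran from 0.65 to 6.96 over the D0 mice and averaged 4.14 in D0, 2.83 in D1, 5.99 in D2 and 2.59 in D3, and that of 6 hepatocyte markers ran from 0.05 to 3.90 in D0. Signal strength differed between tissues and, in forestomach, between slides. The share of spots well above background ran from 49.0% to 56.7% in lung and from 34.5% to 46.4% in liver, but from 18.9% to 51.7% in forestomach, where all 7 arrays of slide 1 lay at 40.4% or more and all 12 arrays of slides 2 and 3 at 34.9% or less. In lung, mice 17 and 19 of D3 carried transcripts of other tissues: over the 5 D3 lungs the mean of 7 skeletal muscle markers ran from -0.49 to 5.82 and that of 7 keratinocyte markers from -0.64 to 3.84, against ranges of -0.61 to -0.39 and -0.66 to -0.44 in D0. The main lung results at D3 are therefore also given without these mice. In forestomach, Ifit1 was well above background on 5 of 19 arrays, Irf7 and Rsad2 on 6, Ifit2 on 7 and Usp18 on 11, whereas Isg15 and Bst2 were above it on all 19 and Ifit3 and Oasl2 on 17. The arrays on which Ifit1, Irf7, Rsad2 or Ifit2 was above it were all of slide 1 and held low ratios. For Ifit1 these read from -2.27 to -1.87, while its higher ratios, up to -0.31, came from spots that were not well above background. In liver all members were above background on every array other than Ifit2 (12 of 19), and in lung all 9 were above it on all 18.

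**Figure D1:**
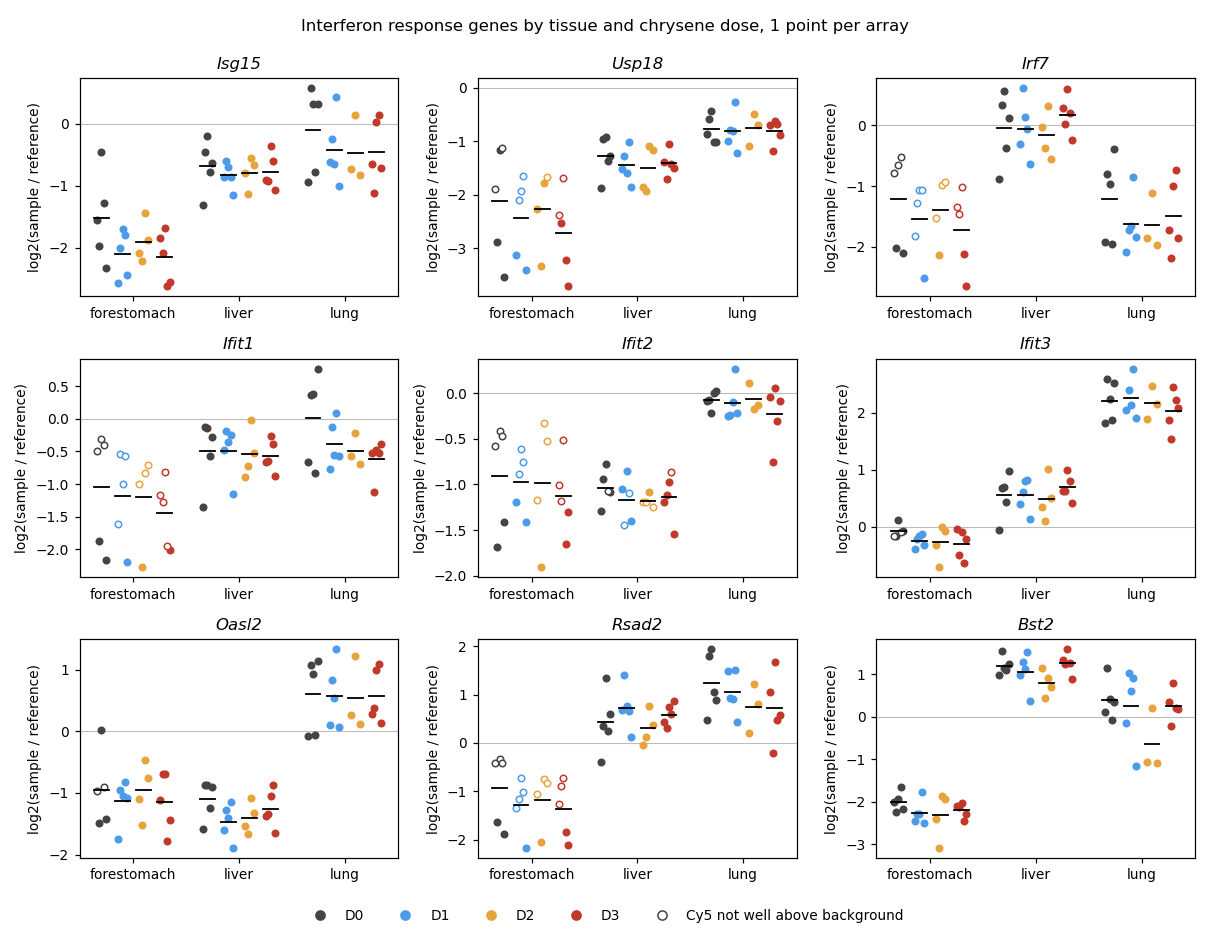
Log2 ratio of sample to reference RNA (y axis) of each member by tissue and dose group (x axis); each point is 1 mouse, open points were not well above background, and the lines are group means. Each dose group overlaps D0 for each gene in each tissue, and the levels of Ifit3, Oasl2 and Rsad2 are highest in lung, and of Bst2 and Irf7 in liver.

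The first comparison asks where these genes are expressed in vehicle mice, from the D0 groups alone. By the brightest probe the mean was highest in lung for 7 of the 9 members and in liver for Irf7 and Bst2, and not all of these gaps passed the test. A probe was called where limma gave an adjusted p of at most 0.05 and a change of at least 1.5-fold, over all probes tested. Between lung and forestomach 8 of the 9 members were called, all higher in lung, and 37.6% of all probes were called in that comparison (19.3% higher in lung). Of the 5 D0 forestomachs, 2 read Ifit1, Ifit2, Irf7 and Rsad2 above background and 3 read Usp18, Ifit3 and Oasl2 above it, so that these forestomach means rest in part on background readings. Between lung and liver 6 of 9 were called, 4 higher and 2 lower in lung, against 46.0% of all probes (24.9% higher and 21.1% lower), and between liver and forestomach 6 of 9 were called, all higher in liver, against 41.0% (19.0% higher).

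Ifit3, an RNA-binding partner of Ifit1, set lung apart from both other tissues. Its D0 values were 1.82, 2.59, 2.23, 1.87 and 2.52 in lung, -0.05, 0.69, 0.70, 0.43 and 0.97 in liver, and -0.16, -0.16, 0.11, -0.09 and -0.08 in forestomach. Every lung lay above every liver and forestomach, and liver and forestomach overlapped. The lung mean exceeded the liver mean by 1.66 ± 0.18 on the log2 scale (SE; limma adjusted p = 3.7e-11) and the forestomach mean by 2.28 ± 0.18 (adjusted p = 4.4e-15). Oasl2 showed a similar lead of lung, with -0.08, 1.07, 0.92, -0.06 and 1.13 in lung and -1.59, -0.87, -0.87, -1.24 and -0.90 in liver. The difference was 1.69 ± 0.28 (limma adjusted p = 4.7e-07), while liver and forestomach differed by -0.14 ± 0.28 (adjusted p = 0.67).

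Rsad2, the antiviral enzyme viperin, stepped down over the tissues, from 1.23 ± 0.63 (SD, n = 5) in lung to 0.43 ± 0.63 in liver and -0.94 ± 0.76 in forestomach, where 2 of 5 arrays read it above background. Lung and liver overlapped and differed by 0.80 ± 0.34 (SE; limma adjusted p = 0.035), a call that was lost when D0 mouse 1, 2 or 4 was left out (adjusted p from 0.058 to 0.14, with differences of 0.79, 0.64 and 0.80). Lung was above liver in all 5 mice, and with mouse as a fixed block, which allows each mouse its own level, the adjusted p was 0.013. Ifit2 was higher in lung than in liver by 0.97 ± 0.22 (limma adjusted p = 1.1e-04), although its liver signal was often at background. Isg15 led in lung over forestomach by 1.42 ± 0.29 and Usp18 by 1.35 ± 0.35 (limma adjusted p = 4.6e-05 and 8.0e-04). Their lung and liver levels differed by 0.58 ± 0.29 and 0.50 ± 0.35, which did not pass the limits (adjusted p = 0.076 and 0.20), and for Ifit1 that difference was 0.50 ± 0.33 (adjusted p = 0.18). Within mice, lung was above liver in 5 of 5 for Isg15, by 0.01 to 1.03, in 5 of 5 for Usp18, by 0.26 or more, and in 4 of 5 for Ifit1. With mouse as a fixed block, added after the data were seen, the adjusted p was 0.032, 0.11 and 0.16, and Isg15 stayed under the fold limit. A second and dimmer Isg15 probe, well above background in all 19 livers and 18 lungs, gave the opposite order. Its D0 means were -0.26 in liver and -0.59 in lung.

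Bst2 and Irf7 were higher in liver than in lung. The D0 livers read 0.98, 1.55, 1.16, 1.11 and 1.25 for Bst2, the lungs 0.13, 1.15, 0.42, -0.08 and 0.35, and the forestomachs ran from -2.24 to -1.66. One lung reached into the liver range, and no forestomach came near either. Lung minus liver was -0.82 ± 0.28 (limma adjusted p = 0.0082) and liver minus forestomach 3.21 ± 0.28 (adjusted p = 2.1e-14), the widest gap between 2 tissues among the members. Irf7, the factor for interferon production, was lower in lung than in liver by 1.16 on the log2 scale, at -1.16 ± 0.35 (adjusted p = 0.0032), and no order of lung and forestomach can be given, since Irf7 was well above background in 2 of 5 D0 forestomachs, at -2.01 and -2.10, and read -0.78 to -0.52 in the others. The values of both gaps depended on the normalization: with each array centred on its median in place of loess, lung minus liver became 0.16 for Irf7 and -0.19 for Bst2 (adjusted p = 0.67 and 0.78). That centring moved the median lung minus liver difference of all probes from 0.03 to 0.62, and both genes stayed below that median. Leaving out D0 mouse 2 or D0 mouse 5 in all tissues lowered the count of members called between liver and forestomach from 6 to 3, with Isg15, Usp18 and Ifit3 lost each time (Ifit3 through the fold limit, at 0.57 and 0.52 with adjusted p = 0.016 and 0.027), and ended the call of Ifit1 between lung and forestomach (adjusted p = 0.076 and 0.15). The other 7 calls between lung and forestomach, and those of Bst2, Rsad2 and Irf7 between liver and forestomach, held whichever mouse was left out. In whole tissue, fewer cells of a type and less RNA per cell cannot be told apart.

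The second comparison asks whether chrysene moved these genes. No member was called in any tissue, at any dose or in the trend over doses: limma called 0 of 9 in each of the 12 tests. Of all tested probes, the same limits at D3 called 2 of 27491 for forestomach (0.00728%), 40 of 31448 for lung (0.127%) and 0 of 24692 for liver (0%). The trends called 0.0400% of forestomach probes, 0.169% of lung probes and 0% of liver probes, and at D1 and D2 no probe was called in any tissue. The Fs statistic named in the study's methods also called 0 of 9 at each dose in each tissue. The shares of all probes given here are limma's, and none is given for the Fs statistic. At every dose and in every tissue the study itself reported more changed genes for chrysene than limma called probes here. At an unadjusted p of at most 0.05, the members past it were Isg15 in forestomach at D3, Ifit1 in lung at D3 and in the lung trend, Bst2 in lung and in liver at D2, and Oasl2 in liver at D1, each lower than D0. The share of all probes that were lower at that p was 3.79% in forestomach at D3, 10.1% in lung at D3 (4.97% without mice 17 and 19), 11.0% in the lung trend, 3.32% in lung at D2, 1.79% in liver at D2 and 1.78% in liver at D1.

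**Figure D2:**
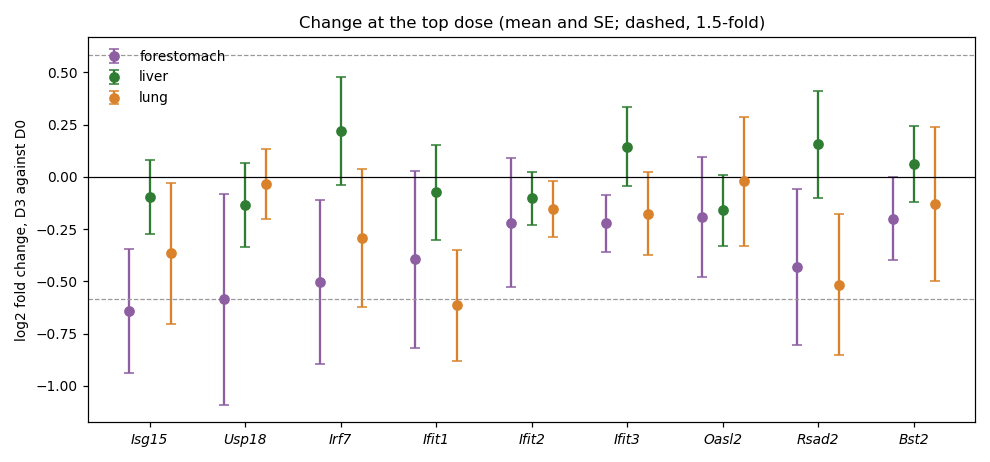
D3 minus D0 log2 change (y axis) of each member (x axis) in forestomach, liver and lung; points are limma estimates, bars standard errors, and the dashed lines mark 1.5-fold. The forestomach estimates run from -0.64 to -0.19 and the lung estimates from -0.61 to -0.02, whereas the liver estimates lie between -0.16 and 0.22.

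In forestomach, the first tissue that gavaged chrysene meets, all 9 estimates at D3 lay below 0, from -0.64 for Isg15 to -0.19 for Oasl2, with a median of -0.39, while 50.3% of all probes lay below 0. The size of the median rested on single mice: it was -0.21, -0.23 and -0.26 without D0 mouse 3, 4 or 1, -0.24 without D3 mouse 20, and -0.60 and -0.67 without D0 mouse 2 or 5. Isg15, the ubiquitin-like modifier, read -1.56, -1.97, -0.45, -1.28 and -2.33 in D0 and -1.85, -2.09, -1.68, -2.63 and -2.55 in D3. Of the D3 values 2 lay below the lowest D0 value and the other 3 within the D0 range. The change was -0.64 ± 0.30 (SE, limma adjusted p = 0.52), and it was -0.59 ± 0.30 at D1 and -0.39 ± 0.32 at D2 (adjusted p = 1.00 and 0.91). Leaving out each mouse in turn gave -0.85 to -0.37 at D3, the latter without D0 mouse 3. The second and dimmer Isg15 probe gave -0.33 at D3 in the same tissue. Usp18, which removes Isg15 from proteins, gave -0.58 ± 0.50 (adjusted p = 0.80), and Irf7 gave -0.50 ± 0.39 (adjusted p = 0.77). The effectors gave -0.43 for Rsad2, -0.39 for Ifit1, -0.22 for Ifit2 and for Ifit3, -0.20 for Bst2 and -0.19 for Oasl2, with limma adjusted p between 0.69 and 0.91.

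Those forestomach values moved with the brightness of the array. Over the 19 arrays, the mean of the 9 members, as a deviation from its dose-group mean, had a correlation of -0.964 with the share of spots well above background, against -0.369 in liver and -0.055 in lung; these are descriptions over arrays that share slides. The mean of the members lay below its group mean on all 7 arrays of the bright slide, for example by 0.70 in D0 mouse 5 and 0.57 in D0 mouse 2, and above it on 11 of the 12 others. Each dose group held arrays of the bright slide. With slide as a block the 9 estimates at D3 still lay below 0, with a median of -0.36, and no member was called (Isg15 -0.56, limma adjusted p = 0.13). Within slides 1, 2 and 3 the median D3 minus D0 difference of the members was -0.22, -0.52 and -0.36, with 7, 8 and 9 of 9 below 0, where slide 2 held 1 D0 array (mouse 1) and slide 3 held 1 D3 array (mouse 18). The common sign was lost where the arrays were median-centred in place of loess (5 of 9 below 0, median -0.04, where that centring moved the median of all probes to 0.18 and left 21.2% below 0), where the array column was added as a covariate (6 of 9, median -0.06) and, in an analysis added after the data were seen, on the bright slide alone (7 of 9, median -0.22). The array column followed the dose groups: 4 of 5 D0 arrays lay in column 1 and 4 of 5 D3 arrays in column 4, and the part of the column in the result was not tested beyond that covariate. Marker lists of other cells moved with or against the members in the same arrays. Among immune cells the correlations were 0.944 for 5 T cell markers, 0.942 for 5 B cell markers, 0.581 for NK cells and 0.173 for neutrophils. They were -0.899 for plasmacytoid dendritic cells and -0.619 for macrophages. Other lists gave -0.878 for 7 keratinocyte markers, -0.771 for skeletal muscle, -0.680 for airway and 0.107 for alveolar type 2 cells. The glandular stomach markers gave -0.459 and the hepatocyte markers -0.524. The part of these cells in the result was not tested.

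**Figure D3:**
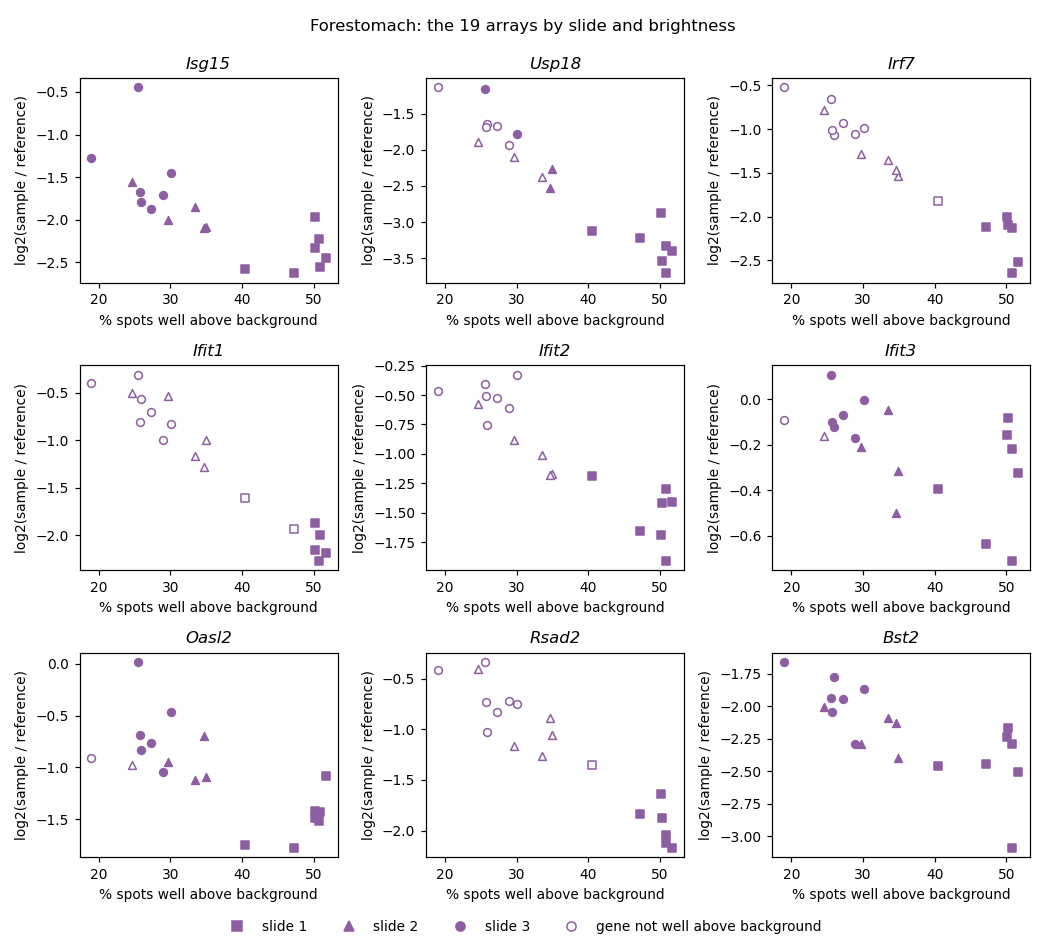
Log2 ratio of each member (y axis) against the percent of spots well above background (x axis) on the 19 forestomach arrays; symbols give the slide, and open points were not well above background. The 7 arrays of slide 1 lie at 40.4% or more, and Ifit1, for example, reads -2.27 at its lowest, on that slide, and -0.31 at its highest, on slide 3.

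In lung all 9 estimates at D3 were also below 0, with a median of -0.18, and 57.5% of all lung probes were below 0 too. Ifit1, which binds RNA without the host's cap modification, read -0.66, 0.37, 0.38, -0.83 and 0.77 in D0 and -0.53, -1.12, -0.48, -0.53 and -0.39 in D3. The D0 mice were split, with 3 at 0.37 or more and 2 at -0.66 or less, and the D3 mice stood between them other than mouse 17, the lowest. The change was -0.61 ± 0.26 (SE, limma adjusted p = 0.27), and -0.47 without mice 17 and 19 (adjusted p = 0.63). Rsad2 gave -0.52 ± 0.34 (adjusted p = 0.47), which became -0.29 without mouse 17, the lowest of all lungs (-0.20), and -0.13 without both, where mouse 19 (0.48) was the next lowest D3 lung. Isg15 gave -0.37 ± 0.34 and Irf7 -0.29 ± 0.33 (limma adjusted p = 0.63 and 0.71), and without the pair they gave -0.35 and -0.32. The other 5 members lay between -0.18 and -0.02. Without mice 17 and 19, 6 of 9 estimates were below 0, from -0.47 to 0.05 with a median of -0.13, where 49.5% of all probes were below 0. The median of the trend was -0.25 with and without them. Leaving out mouse 17 alone gave a median of -0.05, and leaving out D0 mouse 1 or D3 mouse 18 gave -0.27 and -0.28. The sign also varied between slides: the median D3 minus D0 difference was -0.82 on slide 1, 0.47 on slide 2 and -0.60 on slide 3, with 9, 1 and 8 of 9 below 0, where the first rests on mouse 17 as its only D3 lung and the second on mouse 4 as its only D0 lung, with mouse 19 among its 2 D3 lungs. With loess or normexp applied to the scanner values 8 of 9 were below 0, with array weights 6, with the array column as a covariate 5, and with median centring 4, where 24.9% of all probes were below 0 and their median was 0.11. All D0 lungs sat in column 1 of the slides and no D3 lung did, so that column and dose cannot be told apart there.

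Bst2 gave the widest single dose difference of the set, in lung at D2. The 3 D2 lungs read -1.07, 0.21 and -1.08, and the 5 D0 lungs ran from -0.08 to 1.15. Both low lungs lay under all D0 lungs and the remaining one did not. The change was -1.04 ± 0.43 (SE, limma adjusted p = 0.76). It was -0.13 at D3, and it ranged from -1.47 to -0.82 when each mouse was left out in turn. In liver Bst2 was lower at D2 by 0.41, at -0.41 ± 0.19 (SE, limma adjusted p = 1.00), where the D2 livers read 1.16, 0.43, 0.91 and 0.70 against 0.98 to 1.55 in D0. The mice with low Bst2 in lung at D2, 12 and 15, also had the lowest Bst2 livers of that group.

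In liver the members moved in both directions. At D3 the members ran from -0.16 for Oasl2 to 0.22 for Irf7, with 5 of 9 below 0 and a median of -0.07, where 53.0% of probes were below 0. With the array column as a covariate 1 of 9 was below 0, with a median of 0.35 and a highest value of 0.91. The column largely followed the dose groups in liver too, so that column and dose can hardly be told apart. Irf7 livers read -0.89, 0.33, 0.56, -0.37 and 0.11 in D0 and 0.29, 0.02, 0.59, 0.19 and -0.25 in D3. The groups overlapped, with the lowest livers in D0, and the change was 0.22 ± 0.26 (SE, limma adjusted p = 1.00). Oasl2 was at -0.37 ± 0.17 at D1 (SE, limma adjusted p = 1.00), -0.31 ± 0.18 at D2 and -0.16 ± 0.17 at D3, so that the widest gap was at the lowest dose. The test of the difference itself found no D3 change that differed between tissues: limma called 0 of 9 members for any of the 3 pairs, against 0% of probes for lung with liver, 0.705% for lung with forestomach and 0.0776% for liver with forestomach. No member had an unadjusted p of 0.05 or less, where 5.25%, 12.9% and 9.93% of probes did. The members' differences ran from -0.67 to 0.14 for lung minus liver, from -0.22 to 0.55 for lung minus forestomach and from 0.03 to 0.72 for liver minus forestomach. Without the lungs of mice 17 and 19 they ran from -0.54 to 0.18 and from -0.08 to 0.63 for the pairs with lung, again with 0 called. With median centring of all arrays in place of loess the signs were mixed in each pair. The differences then ran from -0.33 to 0.38 for lung minus liver and from -0.28 to 0.23 for lung minus forestomach. For liver minus forestomach they ran from -0.41 to 0.29.

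The third comparison asks whether the spread within dose groups was shared between the organs of a mouse. For each gene the value of each mouse was taken as its deviation from the mean of its dose group, and the deviations in liver were set against those in lung over the 18 mice with both tissues. Oasl2 and Bst2 passed Benjamini-Hochberg adjustment over all 12025 genes measured in both tissues, 2 of 9 members, where 75 genes did so in all (0.624%).

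For Oasl2 the correlation of liver and lung deviations was r = 0.892 over 18 mice (permutation p = 4.0e-05, adjusted p = 0.027; Spearman's rho = 0.917, permutation p = 5.0e-05, adjusted p = 0.035; two-sided, mice permuted within dose groups). In mouse 1 the deviations were -0.49 in liver and -0.68 in lung, in mouse 10 they were -0.43 and -0.51, and in mouse 20 -0.39 and -0.44. At the other end, mouse 9 had 0.31 and 0.76, mouse 13 had 0.28 and 0.68, and mouse 19 had 0.38 and 0.51. The sign was the same in both organs in 16 of 18 mice. Without the 2 mice farthest from the median r was 0.875, and with deviations taken within slides it was 0.903.

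Bst2 gave r = 0.869 (permutation p = 1.9e-04, adjusted p = 0.041) and rho = 0.812 (permutation p = 4.7e-04, adjusted p = 0.091, which missed the limit). Its lowest mouse was the same in both organs, mouse 10, at -0.69 in liver and -1.42 in lung, and 15 of 18 mice had the same sign. Without the 2 farthest mice r was 0.769, and within slides 0.795. Usp18 followed with r = 0.812 (permutation p = 4.2e-04, adjusted p = 0.055) and Ifit3 with r = 0.757 (permutation p = 7.2e-04, adjusted p = 0.073). Isg15 had r = 0.711, Irf7 0.609, Ifit1 0.604 and Rsad2 0.557, with permutation adjusted p between 0.18 and 0.42. Without its 2 farthest mice the r of Rsad2 was 0.352. Ifit2, often at background in liver, had r = -0.033 (permutation adjusted p = 0.99). Over all genes the median r was 0.0926, and 8.68% of genes reached 0.5, a value that 8 of the 9 members passed.

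**Figure D4:**
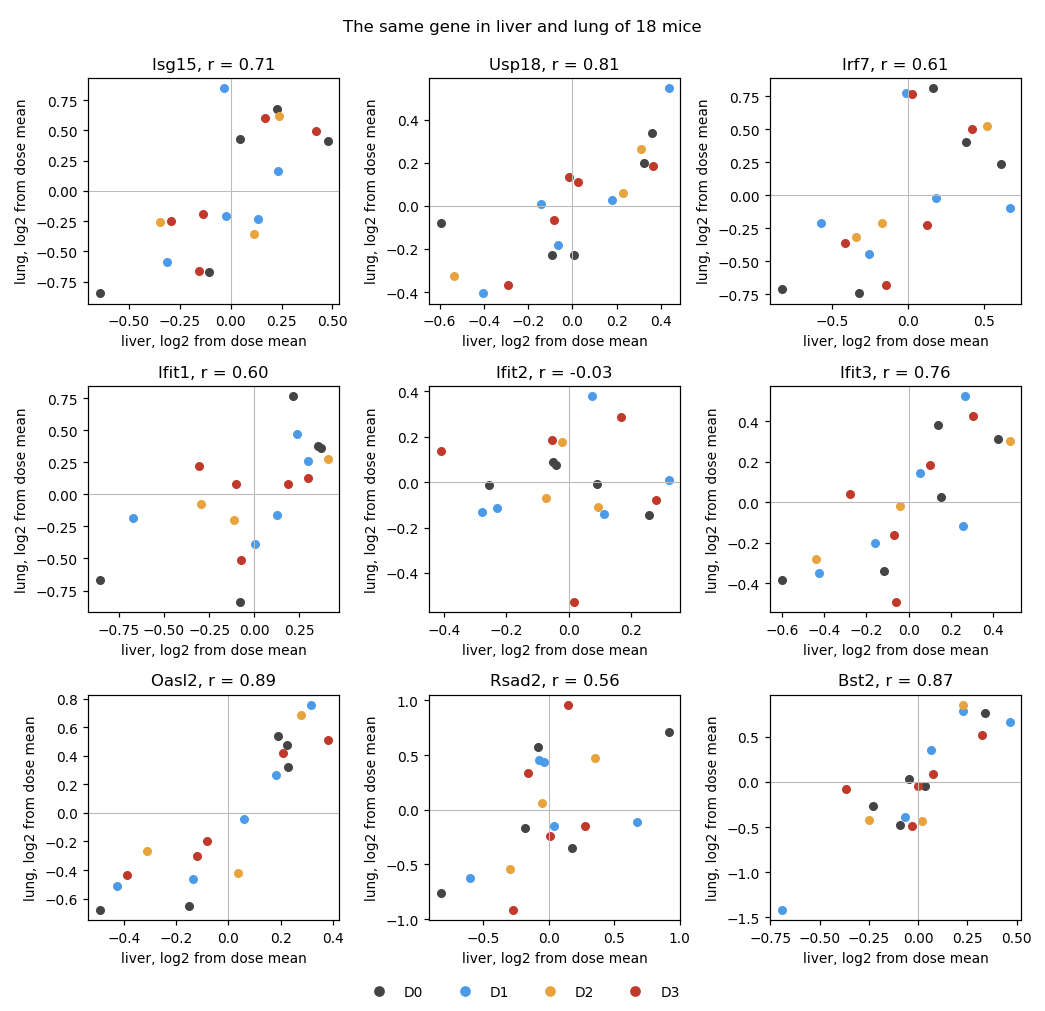
Deviation from the dose-group mean in lung (y axis, log2 ratio) against that in liver (x axis, log2 ratio) for each member; each point is 1 of 18 mice. Points for Oasl2 (r = 0.892) and Bst2 (r = 0.869) rise together, and those for Ifit2 (r = -0.033) do not.

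**Figure D5:**
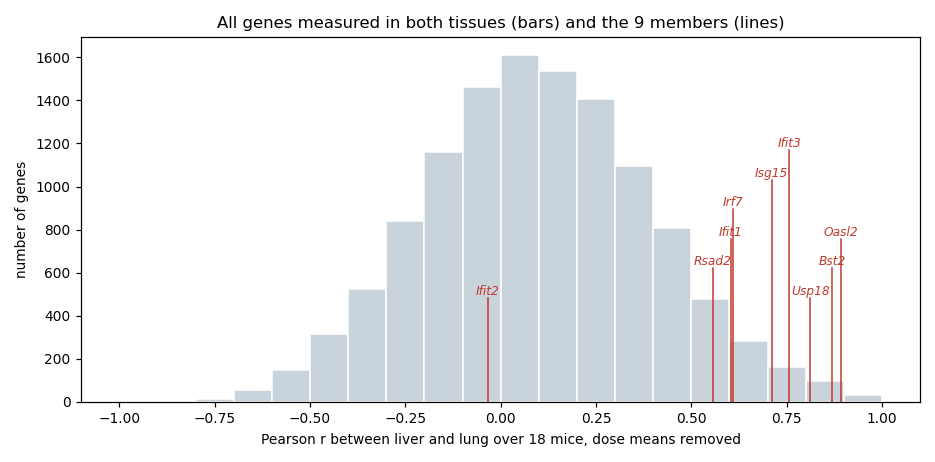
Number of genes (y axis) by Pearson's r of liver and lung deviations over 18 mice (x axis, bars 0.1 wide) for the 12025 genes measured in both tissues, with the 9 members marked. The median gene lies at 0.0926, and 8 of the 9 members lie above 0.5.

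These calls sat near the limit. Leaving out each mouse in turn kept r between 0.876 and 0.933 for Oasl2 and between 0.764 and 0.918 for Bst2, but the adjusted permutation p rose above 0.05 for Oasl2 without mouse 1, 2, 3, 5, 9 or 10 (highest 0.065) and for Bst2 without any mouse other than 17 and 20 (highest 0.14), so that 0 to 2 members were called. With median centring in place of loess, r fell to 0.475 for Oasl2 and 0.335 for Bst2, and no member and no gene was called (adjusted p = 1.00 for both). With loess on the scanner values, added after the data were seen, Usp18 was called as well (adjusted p = 0.047). The forestomach gave lower values: liver and forestomach had r from 0.14 to 0.48 over 19 mice, and lung and forestomach from -0.22 to 0.53 over 18, with 0 of 9 members and 0% of genes called in each. At an unadjusted permutation p of at most 0.05 there were 0 members in the first pair, where 7.45% of genes passed, and 1 in the second, Usp18 (p = 0.041), where 8.01% did. Whether the pairs of tissues differ in r was not tested.

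Mice could be described by all 9 members at once. The mean of the members in mouse 1 lay 0.59 below its dose group in liver and 0.49 below in lung, with all 9 genes below in both organs, and mouse 10 lay 0.48 and 0.49 below, again with all 9. Mouse 18 lay 0.29 above its group in liver and 0.44 above in lung, with all 9 genes above in both, and mouse 13 lay 0.35 and 0.43 above with 9 and 8 genes. Mouse 1 was a vehicle mouse, 10 was of D1, 13 of D2 and 18 of D3. The deviations are centred within each dose group, so that every group holds mice above and below 0 by construction. For marker lists of immune cells the correlation with the members' mean was 0.274 in liver and -0.234 in lung for 4 macrophage markers, 0.403 and 0.056 for B cells, 0.200 and 0.220 for T cells, 0.311 and 0.372 for NK cells, -0.080 and -0.263 for neutrophils, and -0.285 and 0.235 for plasmacytoid dendritic cells. These are descriptions over 19 livers and 18 lungs, and the part of these cells in the result was not tested.

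The members rose and fell together within each tissue. Among pairs of members the median correlation of deviations was 0.709 in liver (from 0.249 to 0.917, 19 arrays) and 0.674 in lung (from 0.184 to 0.948, 18 arrays), and 0.713 and 0.697 when taken within slides. In forestomach it was 0.788, but 0.087 within slides. Ifit2 was the member least like the others in liver and lung, at 0.555 and 0.388 with the members' mean, and Isg15 was among the closest, at 0.922 and 0.961.

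Of 11687 genes measured in all 3 tissues, the 10 whose deviations were most like the members' mean were Ifi44 (mean r over the tissues 0.958), Oas2 (0.919), Xaf1 (0.882), Phf11b (0.873), Ifit3b (0.865), Dhx58 (0.865), Phf11a (0.857), Trim30a (0.818), Rtp4 (0.812) and Zbp1 (0.810). The median gene had a mean r of 0.061 and the 99th percentile was 0.581. Within slides the mean r of these 10 fell to between 0.512 and 0.852, with most of the loss in forestomach. Oas2 makes the messenger that activates RNase L, Dhx58 and Zbp1 sense nucleic acid, and Ifit3b is a near-identical copy of Ifit3, so that a probe for one may read the other. In the promoter window of 250 bases, 4 of the 6 of these genes with an entry held the paired GAAA half-sites (66.7%), as did 4 of 21 other targets of type I interferon (19.0%) and 6 of 13 targets of interferon gamma (46.2%).

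The other genes of the pathway, in lists drawn up from general knowledge of interferon signalling, gave 0 calls in any list, tissue or dose without a block. Ligands were mostly not measurable: of 12 on the arrays the forestomach fit tested 3, the liver fit 4 and the lung fit 7. Ifnk, an interferon of keratinocytes, changed by 0.11 at D3 in forestomach and Ifnl3 by -0.43 (limma adjusted p = 0.93 and 0.74). Among the receptors, 6 of 6 were tested in forestomach, with D3 changes from -0.54 for Ifngr2, a chain of the interferon gamma receptor, to 0.37 for Ifnlr1, the receptor for lambda interferons (adjusted p = 0.60 and 0.65), and Ifngr2 was at -0.32 in lung (limma adjusted p = 0.30), and at -0.32 without mice 17 and 19 too (adjusted p = 0.56). The kinase Tyk2 was 0.33 ± 0.10 higher in D3 lung (SE, limma adjusted p = 0.15), under the 1.5-fold limit, and 0.42 ± 0.11 higher without those mice (adjusted p = 0.22), and Stat2 changed by -0.09 there (-0.11 without them). In forestomach, 13 sensors and adaptors had a median D3 change of -0.09, with Ticam1, the adaptor of toll-like receptor 3, at -0.41 (limma adjusted p = 0.51), and the mean of the list had a correlation of -0.961 with the share of spots well above background over the 19 arrays.

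Targets of type I interferon outside the members leaned the same way as the members in forestomach, where 21 of 26 tested lay below 0 at D3, against 50.3% of all probes, with a median of -0.27, and 5 of these had an unadjusted p of 0.05 or less, against 3.79% of probes. The mean of these 26 genes had a correlation of -0.757 with the share of spots well above background over the 19 arrays, and with median centring 8 of 26 lay below 0, where 21.2% of all probes did. Oasl1, which restrains Irf7 translation, was at -1.63 ± 0.74 and Oas1a at -1.18 ± 0.43 (SE, limma adjusted p = 0.51 and 0.34). With slide as a block 21 of 26 lay below 0, against 50.2% of probes, 7 of these had an unadjusted p of 0.05 or less, against 6.13%, and 1 was called, against 13 of all 27491 probes (0.0473%). This was Rtp4, a chaperone of receptors at the cell surface, at -0.91 ± 0.16 (SE, limma adjusted p = 0.044), which was named after its value was seen. In liver 23 of 26 lay below 0, against 53.0% of probes, with a median of -0.08, and Oasl1 stood apart at 0.83 ± 0.36 (SE, limma adjusted p = 1.00). In lung 19 of 27 lay below 0, against 57.5% of probes, with a median of -0.09, and without mice 17 and 19 it was 17 of 26 and -0.12, against 49.5% of probes. With median centring 8 of 27 lung targets lay below 0, against 24.9% of probes, and with slide as a block 22 of 27 did, against 57.7%. Targets of interferon gamma had D3 medians of -0.13 (forestomach), 0.13 (liver) and 0.07 (lung, 0.040 without mice 17 and 19), and in forestomach they ran from -0.42 for Psmb9, a subunit of the immunoproteasome, to 0.65 for H2-Ab1, a class II antigen-presenting chain (adjusted p = 0.53 and 0.67). Of 7 negative regulators, Trim27 was the highest in forestomach, at 0.35 ± 0.14 (SE, limma adjusted p = 0.43), and the mean of these 7 had a correlation of -0.951 with that share of spots.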

How the data were processed

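RNA was measured on 2-colour Agilent arrays, 1 array per mouse and tissue, with no dyes swapped. Feature Extraction 10.7.3.1 gave, in the files the authors deposited, a median intensity per spot for each dye and the same for its local background. The authors also deposited a table of log2 ratios of Cy5 over Cy3, made by LOWESS without background subtraction; its correlation with ratios recomputed here was 0.977 to 0.998 over the arrays, and its column medians ran from -0.05 to -0.02. All main values are from that table. Probes were named through their RefSeq accessions (GRCm38.p6 gene table), which named 26413 of 55681 probes. Flags well above background come from the scanner files as values of 0 or 1.

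Groups, doses and mouse numbers came from the labels, and mice are the replicates. Tests were run on probes whose Cy5 spot was flagged as well above background on 3 or more arrays of the tissue, leaving out control and non-uniform spots: 27491 probes in forestomach, 24692 in liver and 31448 in lung. limma 3.58.1 in R 4.3.3 fitted the 4 dose groups of each tissue (lmFit, eBayes), a dose-step trend, and a model of all 56 arrays for differences between tissues, with Benjamini-Hochberg adjustment over all probes tested. A probe was called at an adjusted p of at most 0.05 and at least 1.5-fold. The correlation of 2 tissues used 100000 permutations of mice within dose groups (NumPy 2.4.6, Python 3.11.15), adjusted over all genes measured in both. Both tests were checked on simulated data with independent noise for each probe and array. That noise holds no slide, brightness or column pattern, so the check does not cover these. The number of arrays limits the precision.

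The genes named are all 9 members, the 2 highest and 2 lowest of each pathway list at D3 in forestomach (the text gives some of these) and the 10 genes most like the members in their deviations; others in a list are given by counts. The members and lists were chosen with earlier results of these data known. Alternatives were loess and normexp (offset 50) on the scanner values, median centring, other filters, the mean of all probes, slide, column or mouse in the fit, array weights, the Fs statistic with 100 shuffles, dose in mg/kg, and leaving out mice. The lists under other settings, and the lung trend and tissue differences without mice 17 and 19, were added after the data were seen.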

Additional observations from a re-analysis of the deposited data

Results flagged for a closer look

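Within groups of 4 or 5 arrays, 3 of the 99 groups of a member, tissue and dose tested held a value far from the rest by Dixon's criterion (3.03%); chance gives such a value in about 1 group in 20. Ifit1 in the D3 lung of mouse 17 was -1.12, while the other D3 lungs lay between -0.53 and -0.39; this is 1 of the lungs with skeletal muscle and keratinocyte transcripts. Ifit2 in the D1 lung of mouse 9 was 0.27, above the other D1 lungs at -0.25 to -0.10, and the same mouse was the highest D1 lung for Isg15, Irf7, Ifit3, Oasl2 and Usp18. Oasl2 in the D1 forestomach of mouse 6 was -1.75, below the others at -1.08 to -0.83, on an array of the bright slide. No member had all its D3 mice on opposite sides of the D0 mean in 2 tissues.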

How the results depend on the processing

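In 417 alternatives for a dose effect or a D3 difference between tissues, no member was called. Each contrast of a fit counts as 1 alternative. Leaving out a mouse of D1 or D2 leaves the D3 estimates as they were, so these alternatives are not independent. The main fits called from 0% to 0.705% of all probes, and the shares in the alternatives are not all given. Signs at D3 were less stable. With median centring the change in forestomach D3 Ifit2 became 0.00155, and in that tissue it was 0.050 for Ifit3, 0.23 for Oasl2 and 0.37 for Bst2, and with array column as a covariate 0.13 for Ifit1, 0.37 for Ifit2 and 0.17 for Oasl2 in forestomach, 0.14 for Oasl2 in liver and 1.16 for Rsad2 in lung. The array column largely followed the dose groups in every tissue, so that the fit can hardly separate it from dose. On the bright slide alone, an alternative chosen after seeing the data, Ifit1 became 0.041 and Ifit2 0.074. Leaving out each mouse gave -0.32 to 0.052 for Oasl2 in forestomach, above 0 only without D0 mouse 3. Median centring turned the D0 differences to 0.16 for Irf7 (lung minus liver), and 0.14 for Ifit2 and 0.60 for Oasl2 (liver minus forestomach), and it ended all calls of liver and lung agreement, 0 members. Loess and normexp on the scanner values, chosen for the agreement after seeing the data, gave r = 0.051 and 0.072 for Ifit2, and leaving out its 2 farthest mice 0.059. When each mouse was left out in turn, the members called for liver and lung agreement ranged from 0 to 2 and Ifit2's r from -0.13 to 0.083; members called between liver and forestomach ranged from 3 to 7; Irf7 lung minus forestomach ranged from -0.42 to 0.37, Ifit2 liver minus forestomach from -0.34 to 0.024 and Oasl2 liver minus forestomach from -0.33 to 0.044. The tissues of a mouse were paired by the mouse number of the labels; with mouse as replicate block (correlation 0.026) 6, 8 and 6 members were called for lung minus liver, lung minus forestomach and liver minus forestomach and no call changed; as a fixed block, added later, the counts were the same. The cause of these shifts was not tested. Weak Cy5 signal limits the forestomach values of Ifit1, Irf7, Rsad2, Ifit2 and Usp18 and the liver values of Ifit2.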
